A study of Mus musculus with 1507 samples.

Results

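Genes that glucocorticoid receptor studies often use as readouts were followed through the making of primitive endoderm (PrE) from mouse embryonic stem (ES) cells with dexamethasone, a synthetic glucocorticoid. The members were taken by gene name, from a list made with earlier results of these data known: *Nr3c1*, *Fkbp5*, *Tsc22d3*, *Per1*, *Sgk1*, *Zbtb16*, *Klf9*, *Dusp1*, *Ddit4* and *Errfi1*, 10 of 47643 annotated genes. The cells were of the 5G6GR line, ES cells with a randomly integrated transgene that joins Gata6 to a part of the glucocorticoid receptor (GR) and carries puromycin resistance, so that dexamethasone turns on the endoderm programme. ES cells grew without feeders in medium with serum, leukemia inhibitory factor, puromycin and blasticidin, and differentiation medium held dexamethasone in place of blasticidin. RamDA-seq, a full-length total RNA method for single cells, gave 93 cells sorted at 72 h of dexamethasone, 87 at 48 h, 93 at 24 h, 91 at 12 h and 92 untreated cells at 0 h. On 4 plates that held both cell types, it gave 195 PrE cells cultured for 72 h with dexamethasone and 189 untreated ES cells. On the C1 chip, 39 PrE cells and 16 ES cells were sequenced from 1 run, and a further 277 untreated ES cells were sorted by phase of the cell cycle.

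Glucocorticoids enter the cell, bind GR (encoded by *Nr3c1*) in a complex with HSP90 and its partner proteins, and send the receptor to the nucleus, where it binds DNA as a dimer and changes transcription. In many tissues the genes that rise within hours encode brakes on signalling, such as phosphatases and kinase inhibitors, feedback factors such as FKBP51, and transcription factors. In this line the hormone also acts on the GATA6 fusion protein, the driver of primitive endoderm, the epithelium that lines the yolk sac. All PrE cells had received dexamethasone and no ES cell had. A response to the drug, a response to the change of medium and a change that belongs to cell fate therefore cannot be told apart by design, and the values below are those of the groups.

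Values are TPM, the share of a cell's transcripts scaled for length and depth, summed over the transcripts of a gene, and means carry the SD over cells or plates. Cells are not replicates of a condition, so the times and the C1 cells have no test and are described with log2 folds of mean TPM + 1. The 4 plates were tested with limma, and their p-values measure the spread between plates, since separate cultures are not stated. A gene was compared when its mean was at least 1 TPM in 1 of the groups, a limit passed by 9 of the 10 members and not by *Zbtb16*. Median numbers of detected transcripts (at least 0.1 TPM) were 37768 to 40983 over the times and 31322 and 31868 in C1 PrE and ES cells. Over the groups of the 4 plates they were 28508 to 29066. The paper prepared these plates with a modified RamDA-seq protocol and the C1 cells with a protocol for the chip. Differences of the plates or C1 cells from the other cells, also in untreated ES cells, cannot be told apart from library preparation. On the plates, 22 of 384 wells (8 PrE, 14 ES) held only 22 to 206 detected transcripts, against at least 10616 in the others. All 220 member values of those wells were 0, and the member folds are also given without them. Of 16 endoderm markers, 14 were at least 2-fold higher at 12 h than at 0 h and all 16 were from 24 h on, whereas 7 of 8 ES markers were at least 2-fold lower at 72 h. Of 10 markers of other cell types, 6 did not reach 1 TPM at any time, and their sum over the list was 0.0441 to 12.4 TPM per cell at 72 h and 1.20 to 17.2 TPM at 0 h.

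On the scale of log2(mean TPM + 1), which understates changes of low genes, none of the 9 members compared was 2-fold higher at any time after dexamethasone was added than at 0 h. Plain ratios of means passed 2 for low members: 2.25 for *Errfi1* at 24 h, 2.32 for *Ddit4* at 48 h and 2.17 at 72 h, 2.06 for *Tsc22d3* at 48 h and 2.69 at 72 h, and 3.01 at 48 h and 5.17 at 72 h for *Zbtb16*, which was not compared. With a pseudocount of 0.1 in place of 1, 1 member was past 2-fold higher at 24 h, 1 at 48 h and 2 at 72 h. At 12 h, 2.81% of all compared genes were past 2-fold higher and 4.83% past 2-fold lower, and of the members only *Dusp1* was past 2-fold, on the lower side. At 24 h the shares of all genes were 8.67% higher and 5.80% lower, at 48 h 12.8% and 9.70%, and at 72 h 12.6% and 12.1%. The members past 2-fold lower were *Fkbp5* and *Dusp1* at 24 h and 48 h, and *Fkbp5*, *Sgk1* and *Dusp1* at 72 h. The median log2 fold of the 9 members was -0.32 at 12 h (all genes -0.04), -0.06 at 24 h (0.18), 0.41 at 48 h (0.07) and 0.61 at 72 h (-0.01). Summed over the members, the mean level was 179.9 TPM at 0 h, 152.9 at 12 h, 150.4 at 24 h, 136.3 at 48 h and 112.2 at 72 h. *Sgk1* was the highest member at every time, with 47.4% of that sum at 0 h and 33.7% at 72 h. *Fkbp5* held the second place at 0 h and the eighth at 72 h.

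**Figure D1:**
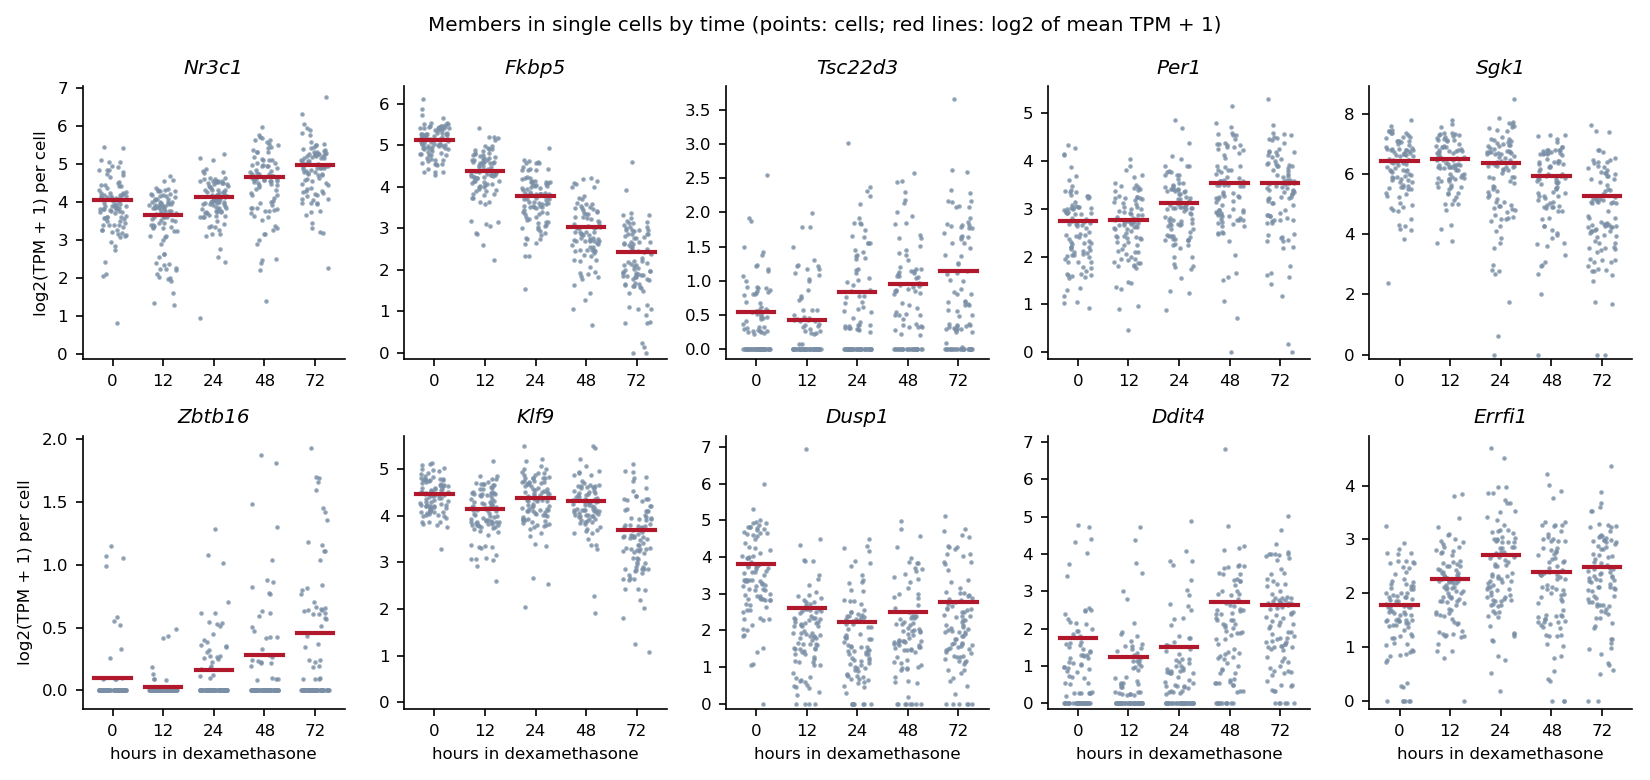
Level of each member in single cells at 0, 12, 24, 48 and 72 h of dexamethasone, as log2(TPM + 1) on the vertical axis. Points are cells and red lines are the log2 of mean TPM + 1: *Fkbp5* has a lower line at each later time, and the line of *Nr3c1* lies lowest at 12 h and highest at 72 h.

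*Nr3c1*, the receptor gene (chromosome 18, 39410545 to 39491301, minus strand, GRCm38), averaged 15.5 ± 7.84 TPM at 0 h, 11.4 ± 5.32 at 12 h, 16.5 ± 6.32 at 24 h, 24.0 ± 13.1 at 48 h and 30.4 ± 15.3 at 72 h. Its lowest, median and highest cells were at 0.734, 13.8 and 42.1 TPM at 0 h and at 3.73, 29.2 and 107 TPM at 72 h. It was found in every cell, and the middle 50% of cells at 72 h (19.5 to 37.2 TPM) lay above that at 0 h (10.3 to 17.9 TPM), while those at 0 h and 24 h (12.2 to 20.4 TPM) overlapped. On the plates it had 54.8, 43.04, 37.04 and 46.1 TPM in PrE cells of plates E1, E2, B1 and B2, and 22.3, 18.1, 15.6 and 16.7 TPM in ES cells. Every PrE plate was above every ES plate, and *Nr3c1* rose in PrE by a log2 fold of 1.27 ± 0.144 (SE, limma, adjusted p = 7.36e-05). In C1 cells it averaged 60.7 ± 28.4 TPM in PrE (n = 39) and 24.2 ± 8.77 TPM in ES cells (n = 16).

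The counts of *Nr3c1* cannot be taken as the endogenous gene alone, since the transgene carries a part of GR and its reads may be counted here. The paper gives neither the species nor the part of GR in the vector. Across the 456 cells of the time course, the gene whose level was most like that of *Nr3c1* was *Gata6* (Spearman's rho 0.709, of 17047 genes), followed by *Dstn* (0.658) and *Wdr1* (0.639). After this was seen, the same was looked up within groups, whose cells share a medium but not the number of detected transcripts (25477 to 43858 at 0 h). In untreated ES cells at 0 h, rho with *Gata6* was 0.785 and the highest of 16897 genes. It was 0.491 at 12 h, 0.553 at 24 h, 0.721 at 48 h and 0.741 at 72 h, and *Gata6* held the highest rho in 14 of 18 groups of cells over all experiments, with near-empty wells left out. At 12 h it did not, and there *Nr3c1* had a rho of 0.496 with the number of detected transcripts.

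The relation was carried by 1 annotated transcript. *Nr3c1-004* (39414482 to 39487232) held 83.02% of the gene's TPM at 0 h and 84.6% at 72 h, and its rho with *Gata6* was 0.882 at 0 h and 0.838 at 72 h. The other *Nr3c1* transcripts together averaged 2.62 TPM at 0 h and 4.68 TPM at 72 h, with rho of 0.045 and -0.242. In C1 cells *Nr3c1-004* averaged 55.1 TPM in PrE and 22.2 TPM in ES cells, and the other transcripts 5.62 TPM and 1.98 TPM. *Gata6* itself averaged 44.9 TPM at 0 h and 157.4 TPM at 72 h, whereas *Gata4*, another endoderm factor, averaged 0.540 TPM and 212.5 TPM. With the merged gene models, which add assembled transcripts to the annotation, *Gata6* averaged 9.27 TPM at 0 h and 99.2 TPM at 72 h, and rho was 0.729 and 0.251. There *Gata6* had the highest rho with *Nr3c1* only at 0 h, and stood at place 1903 at 12 h, 82 at 24 h, 462 at 48 h and 889 at 72 h. How many of these reads came from the transgene was not tested.

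**Figure D2:**
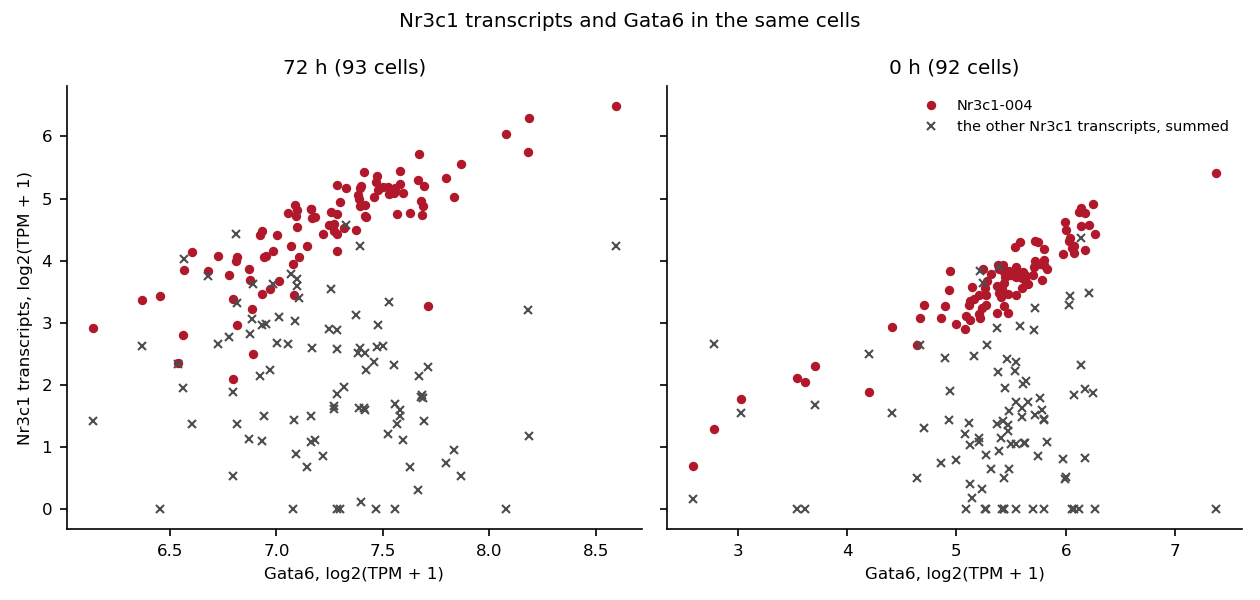
*Nr3c1* transcripts against *Gata6* in the same cells at 72 h (left, n = 93) and 0 h (right, n = 92), all as log2(TPM + 1). Red points are *Nr3c1-004*, which climbs with *Gata6* at both times, and crosses are the other transcripts summed, which do not.

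*Fkbp5* encodes FKBP51, the HSP90 partner that lowers the receptor's affinity for hormone and is among the most used markers of GR activity in mouse and human tissues. Here its level was lower at each later time. It averaged 34.04 ± 8.64 TPM at 0 h, 19.8 ± 7.30 at 12 h, 12.8 ± 5.31 at 24 h, 7.13 ± 3.82 at 48 h and 4.35 ± 3.22 at 72 h. The lowest, median and highest cells were at 18.4, 33.8 and 68.4 TPM at 0 h, at 3.72, 19.5 and 41.7 at 12 h, and at 0, 3.57 and 23.1 at 72 h. The middle 50% of cells at 12 h (15.2 to 24.1 TPM) lay below that at 0 h (28.6 to 40.1 TPM), and those of 12 h and 24 h (9.08 to 15.9 TPM) overlapped. The log2 folds against 0 h were -0.75, -1.34, -2.11 and -2.71, in order of time.

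On the plates *Fkbp5* had 4.22, 4.22, 4.36 and 4.27 TPM in PrE cells of E1, E2, B1 and B2, and 30.9, 29.6, 28.7 and 25.5 TPM in ES cells. The groups were far apart in every plate, and *Fkbp5* fell in PrE by a log2 fold of -2.49 ± 0.0793 (SE, limma, adjusted p = 3.38e-08). Of 17418 genes compared, 310 had a lower fold. Without the near-empty wells the log2 fold was -2.54 ± 0.0650. In C1 cells its lowest, median and highest values were 0.428, 7.77 and 19.6 TPM in PrE and 18.9, 44.2 and 63.99 TPM in ES cells, so that the groups overlapped only at their edges. Within a time, *Fkbp5* was set against each cell's mean of log2(TPM + 1) over the endoderm or the ES markers. At 0, 12, 24, 48 and 72 h its rho was 0.109, -0.025, 0.038, -0.072 and 0.079 with the endoderm markers. With the ES markers it was 0.083, 0.430, 0.091, 0.096 and 0.098. At 12 h, where the rho with ES markers was highest, *Fkbp5* also had a rho of 0.353 with the number of detected transcripts. Across all times the genes most like *Fkbp5* were *Chchd10* (rho 0.864), *Gm38312* (0.859) and *Cmah* (0.852). The main transcript, *Fkbp5-001*, averaged 29.5 TPM at 0 h and 3.10 TPM at 72 h. The annotated *Gm22146*, a small RNA gene, lies inside *Fkbp5* on the other strand, and the counting did not use strand.

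*Sgk1* encodes a kinase that controls ion channels and survival signals and is a classical corticosteroid target in the kidney. It was the most abundant member, and its course differed from that of *Fkbp5*. Its lowest, median and highest cells were at 4.16, 81.3 and 218 TPM at 0 h, at 12.1, 80.4 and 221 at 12 h, at 0, 73.9 and 360.2 at 24 h, at 0, 53.1 and 158 at 48 h, and at 0, 22.1 and 195 at 72 h. The means were 85.2 ± 46.3 TPM at 0 h, 88.5 ± 44.3 at 12 h, 81.5 ± 63.02 at 24 h and 37.7 ± 37.8 at 72 h, and the middle 50% of cells overlapped between 0, 12 and 24 h. The coefficient of variation was 0.543 at 0 h and 1.00 at 72 h.

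The plates gave another picture of *Sgk1*. PrE cells had 44.4, 43.3, 47.9 and 42.01 TPM on E1, E2, B1 and B2, and ES cells 56.4, 49.4, 42.7 and 40.9 TPM. The groups overlapped, with PrE higher in 2 of 4 plates, and the log2 fold of -0.08 ± 0.110 did not pass the test (SE, limma, adjusted p = 0.551). Without the near-empty wells it was -0.12 ± 0.0761 (limma, adjusted p = 0.186). In C1 cells *Sgk1* averaged 61.1 ± 43.05 TPM in PrE and 110.3 ± 71.8 TPM in ES cells. Untreated ES cells themselves differed 2.33-fold between experiments, from 47.3 TPM on the plates to 110.3 TPM on the C1 chip. Plates, C1 chip and time course did not share a library protocol.

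*Sgk1* has several starts, which were not equal in level. Promoter windows from RefSeq (GRCm38.p6, from 250 bases before to 50 after a start) were searched on both strands for the hexamer AGAACA or its reverse complement TGTTCT, one arm of the receptor's binding motif, and for both arms 3 bases apart with at most 2 mismatches in their 12 letters. Overlapping matches were counted separately. Of 32851 promoters, 18.97% held a hexamer, 1.84% held a pair of arms and 3 held a pair without a mismatch. The members had 17 promoters of 8 genes: 4 of them, of *Sgk1* and *Tsc22d3*, held a hexamer and 2, both of *Sgk1*, held a pair. One of the 3 perfect pairs stood before the start of *Sgk1-003*. A match is only a match of letters, and binding was not measured. Sequence outside the windows was not searched, so a window without a match does not show that a gene lacks a site. The windows of 3 *Sgk1* starts and of *Fkbp5* are printed, each 5′ to 3′ along its gene with matches in capitals. They show the perfect pair, an upstream *Sgk1* start with a hexamer, and the starts of the main transcripts of *Sgk1* and *Fkbp5*. The window of *Sgk1-202*, another upstream start, held no match and is not printed.
Sgk1-003 window (chr10:21993640-21993939, plus strand, pair at -189 from the start and another hexamer before it): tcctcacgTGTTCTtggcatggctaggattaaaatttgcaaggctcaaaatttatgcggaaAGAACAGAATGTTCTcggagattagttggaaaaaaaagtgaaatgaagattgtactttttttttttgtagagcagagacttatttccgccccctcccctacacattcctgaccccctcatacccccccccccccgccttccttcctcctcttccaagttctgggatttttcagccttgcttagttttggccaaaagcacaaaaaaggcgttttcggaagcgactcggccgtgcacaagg
Sgk1-201 window (chr10:21991973-21992272, plus strand, hexamer at -13): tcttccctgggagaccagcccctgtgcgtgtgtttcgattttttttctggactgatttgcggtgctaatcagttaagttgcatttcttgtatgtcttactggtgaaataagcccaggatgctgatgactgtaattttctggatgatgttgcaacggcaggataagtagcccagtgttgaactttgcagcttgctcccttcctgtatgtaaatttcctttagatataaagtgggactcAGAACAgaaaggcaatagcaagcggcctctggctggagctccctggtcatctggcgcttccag
Sgk1-001 window (chr10:21994416-21994715, plus strand, no match): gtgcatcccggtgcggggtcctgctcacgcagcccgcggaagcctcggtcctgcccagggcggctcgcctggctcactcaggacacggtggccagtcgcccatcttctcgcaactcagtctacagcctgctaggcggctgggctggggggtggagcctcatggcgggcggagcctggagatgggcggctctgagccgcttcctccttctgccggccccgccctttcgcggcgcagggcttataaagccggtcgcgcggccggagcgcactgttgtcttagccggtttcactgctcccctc
Fkbp5-001 window (chr17:28486100-28486399, minus strand, no match): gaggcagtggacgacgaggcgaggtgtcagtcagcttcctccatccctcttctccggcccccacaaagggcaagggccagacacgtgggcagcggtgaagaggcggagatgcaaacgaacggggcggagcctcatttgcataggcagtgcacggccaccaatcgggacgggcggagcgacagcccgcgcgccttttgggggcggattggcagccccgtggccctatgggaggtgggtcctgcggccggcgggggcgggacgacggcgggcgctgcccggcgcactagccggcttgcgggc

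*Sgk1-003*, the transcript that starts behind the perfect pair, was rare. It averaged 0.162 TPM at 0 h, 0.494 at 12 h, 0.578 at 24 h, 1.12 at 48 h and 0.504 at 72 h, and reached 0.1 TPM in 7 of 92, 19 of 91, 17 of 93, 30 of 87 and 17 of 93 cells. On plates E1, E2, B1 and B2 it was found in 2 of 56, 6 of 54, 4 of 38 and 4 of 47 PrE cells, and in 0 of 40, 0 of 42, 1 of 58 and 0 of 49 ES cells. Its plate means were 0.327, 1.34, 1.12 and 0.814 TPM in PrE cells, and 0.129 TPM on B1 and 0 on the other plates in ES cells. In C1 cells it was found in 4 of 39 PrE cells and in 1 of 16 ES cells. These values were picked after the search and were not tested. *Sgk1-001*, whose window held no match, averaged 41.2 TPM at 0 h, 41.3 at 12 h, 49.2 at 24 h, 37.5 at 48 h and 22.5 at 72 h. The upstream starts were near 0 by 72 h: *Sgk1-202* averaged 5.38 TPM at 0 h, 6.22 at 12 h and 0.0199 at 72 h, and *Sgk1-201* averaged 5.59 TPM at 0 h, 3.53 at 12 h and 0.0645 at 72 h. Transcripts of a gene share most of their exons, and their TPM are estimates that split shared reads.

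**Figure D3:**
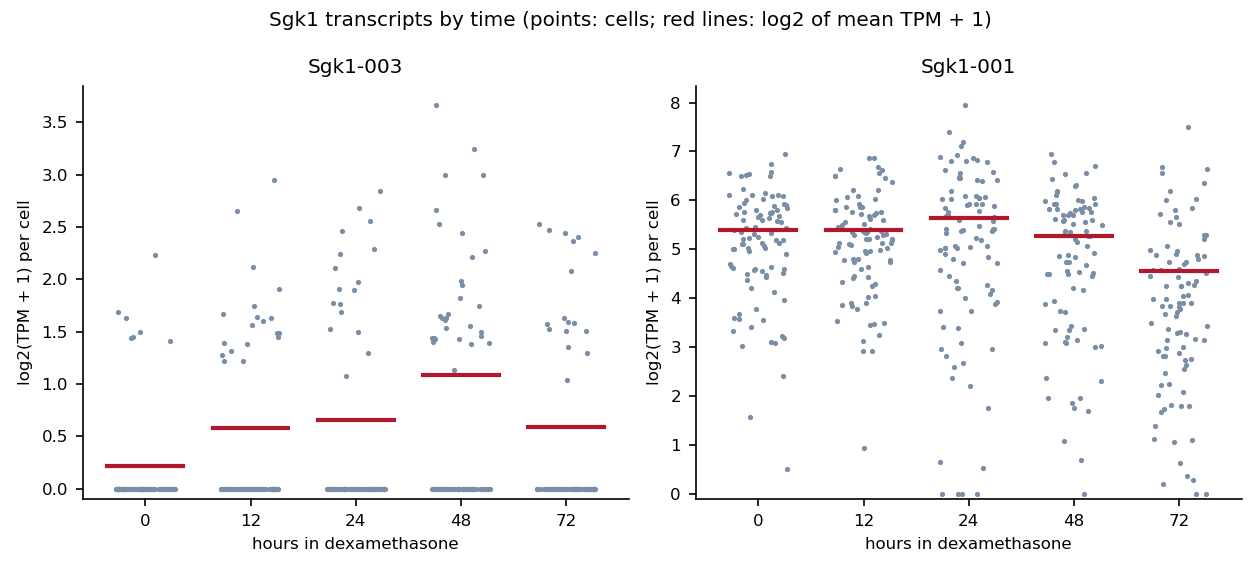
*Sgk1-003* (left) and *Sgk1-001* (right) in single cells at 0 to 72 h, as log2(TPM + 1), with points for cells and red lines for the log2 of mean TPM + 1. *Sgk1-003* was found in 30 of 87 cells at 48 h and in 7 of 92 at 0 h, and *Sgk1-001* has its lowest line at 72 h.

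*Tsc22d3* encodes GILZ, a leucine zipper protein that mediates part of the anti-inflammatory action of glucocorticoids, and in immune cells it is among their strongest targets. Its level was low here. It averaged 0.450 ± 0.728 TPM at 0 h, 0.345 ± 0.602 at 12 h, 0.783 ± 1.21 at 24 h, 0.930 ± 1.15 at 48 h and 1.21 ± 1.69 at 72 h, and was detected in 56.5%, 42.9%, 56.99%, 68.97% and 70.97% of cells. *Tsc22d3* on the plates had 1.12, 0.918, 0.919 and 1.29 TPM in PrE cells of E1, E2, B1 and B2, and 1.84, 1.33, 1.39 and 0.921 TPM in ES cells. PrE was higher only on B2, and the log2 fold of -0.19 ± 0.136 did not pass the test (SE, limma, adjusted p = 0.252). *Tsc22d3* in C1 cells averaged 1.49 ± 1.83 TPM in PrE and 0.670 ± 1.20 TPM in ES cells. Untreated ES cells differed more between experiments than any of these contrasts: 0.450 TPM at 0 h, 0.670 on the C1 chip, 1.37 on the plates and 2.99 in the cells sorted by phase, a 6.65-fold range. Most of the RNA was counted on *Tsc22d3-003*, annotated as a processed transcript that does not code for protein.

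The members that encode transcription regulators did not share a course. *Per1*, a repressor of the circadian clock that glucocorticoids induce in many tissues, averaged 5.68 ± 3.70 TPM at 0 h, 5.80 ± 3.02 at 12 h, 7.65 ± 4.56 at 24 h, 10.7 ± 6.64 at 48 h and 10.7 ± 6.49 at 72 h. Its middle 50% of cells overlapped between all neighbouring times. On the plates it had 20.3, 22.6, 21.4 and 22.7 TPM in PrE cells and 10.9, 8.68, 8.95 and 8.06 TPM in ES cells of E1, E2, B1 and B2, with no overlap. *Per1* rose in PrE by a log2 fold of 1.17 ± 0.0981 (SE, limma, adjusted p = 1.06e-05). In C1 cells it averaged 16.0 ± 11.8 TPM in PrE and 4.80 ± 4.78 TPM in ES cells. In untreated ES cells *Per1* spanned a 2.10-fold range between experiments, with 4.35 TPM in cells sorted by phase and 9.14 TPM on the plates. Of the 9 other clock genes compared on the plates, 3 rose and 4 fell, where 34.5% of all genes rose and 25.3% fell. Among them were *Arntl*, the activator of *Per1*, with a log2 fold of 1.49 and *Ciart*, a repressor, with -1.92. Without the near-empty wells 10 were compared, and 3 rose and 5 fell, beside 35.7% and 29.6% of all genes.

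*Klf9*, a zinc finger repressor and an early GR target in neurons and liver, was near 20 TPM in most groups. It averaged 21.1 ± 5.37 TPM at 0 h, 16.8 ± 5.78 at 12 h, 20.02 ± 7.04 at 24 h, 18.8 ± 6.98 at 48 h and 11.9 ± 6.66 at 72 h. *Klf9* on the plates had 15.5, 16.4, 16.6 and 17.02 TPM in PrE cells and 24.7, 26.4, 27.5 and 23.8 TPM in ES cells of E1, E2, B1 and B2. *Klf9* fell in PrE, by a log2 fold of -0.61 ± 0.0749 (SE, limma, adjusted p = 1.17e-04). In C1 cells the means were 18.3 ± 10.2 TPM in PrE and 19.5 ± 4.61 TPM in ES cells, and the middle 50% of cells overlapped. The annotation places the microRNA gene *Mir1192* inside *Klf9* on the same strand, so their reads cannot be separated by strand.

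*Zbtb16*, also called PLZF, is a zinc finger factor that glucocorticoids raise strongly in human endometrial stromal cells. Its mean stayed below 1 TPM in every group, and the tests across genes left it out. At 0, 12, 24, 48 and 72 h it averaged 0.0714, 0.0165, 0.120, 0.215 and 0.369 TPM. It was detected in 9 of 92 cells at 0 h (9.78%, exact binomial 95% interval 4.57 to 17.8%), in 4 of 91 at 12 h (4.396%, 1.21 to 10.9%), in 27 of 93 at 24 h (29.03%, 20.1 to 39.4%), in 27 of 87 at 48 h (31.03%, 21.5 to 41.9%) and in 38 of 93 at 72 h (40.9%, 30.8 to 51.5%). The intervals cover counting error only and are no test between times. *Zbtb16* on the plates had 0.310, 0.220, 0.282 and 0.261 TPM in PrE cells and 0.0485, 0.0195, 0.0396 and 0.0164 TPM in ES cells of E1, E2, B1 and B2. All PrE plates were above all ES plates, with a ratio of means of 8.66. With no filter on low values, its log2 fold was 0.30 ± 0.0263, and small because 1 is added to both means (SE, limma, adjusted p = 7.79e-05). In C1 cells it was detected in 14 of 39 PrE cells and in 2 of 16 ES cells.

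The last members encode brakes on growth signalling. *Dusp1*, a phosphatase that switches off MAP kinases, was lower at every later time than at 0 h, with means of 12.9 ± 10.1 TPM at 0 h, 5.04 ± 13.1 at 12 h, 3.64 ± 4.37 at 24 h, 4.64 ± 5.73 at 48 h and 5.81 ± 6.76 at 72 h. Its medians were 9.41, 2.77, 2.03, 2.66 and 3.21 TPM. On the plates it had 8.50, 7.82, 10.6 and 7.53 TPM in PrE cells and 25.1, 22.2, 23.1 and 20.98 TPM in ES cells of E1, E2, B1 and B2. *Dusp1* fell in PrE by a log2 fold of -1.32 ± 0.112 (SE, limma, adjusted p = 1.16e-05). In C1 cells the means were 10.7 ± 12.9 TPM in PrE and 17.4 ± 17.5 TPM in ES cells, and the middle 50% of cells overlapped. *Dusp1* is also an immediate early gene of serum and stress, and the cells were dissociated with enzyme and stained with a DNA dye before sorting. Over the times, the summed level of 14 immediate early genes moved with it: 101.5 TPM at 0 h, 40.2 at 12 h, 33.1 at 24 h, 54.5 at 48 h and 76.2 at 72 h. Its range over cells was 36.04 to 289 TPM at 0 h and 19.7 to 208 TPM at 72 h. In C1 cells that sum went the other way from *Dusp1*, with a mean of 123.1 TPM in PrE and 88.9 TPM in ES cells. Across cells of a time, *Dusp1* was also set against each cell's mean of log2(TPM + 1) over these genes. The rho was 0.437, 0.401, 0.413, 0.450 and 0.542, in order of time. Their part in the fall of *Dusp1* was not tested. On the plates 13 of these genes were compared. In PrE 4 fell (25.3% of all genes did), among them *Egr1* (log2 fold -5.24), *Ier2* (-2.93) and *Fos* (-2.27). The 3 that rose (34.5% of all genes did) were *Btg2* (3.42), *Atf3* (2.72) and *Jun* (1.17). Without the near-empty wells 5 fell and 3 rose, beside 29.6% and 35.7% of all genes. The log2 fold of *Nr4a1* was -1.24 there and 0.23 with all wells.

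*Errfi1* encodes MIG6, an inhibitor of EGF receptor kinases. It averaged 2.46 ± 1.67 TPM at 0 h, 3.81 ± 2.33 at 12 h, 5.53 ± 4.23 at 24 h, 4.29 ± 3.35 at 48 h and 4.62 ± 3.23 at 72 h, and had the largest fold of the members at 12 h (log2 0.48) and 24 h (0.92) on the higher side. *Errfi1* on the plates had 7.01, 5.94, 5.55 and 4.39 TPM in PrE cells and 2.53, 2.54, 2.497 and 2.30 TPM in ES cells of E1, E2, B1 and B2. *Errfi1* rose in PrE by a log2 fold of 0.94 ± 0.123 (SE, limma, adjusted p = 1.79e-04). *Errfi1* in C1 cells averaged 5.67 ± 3.79 TPM in PrE and 2.69 ± 3.11 TPM in ES cells. Untreated ES cells spanned a 2.05-fold range for *Errfi1*, and those sorted by phase averaged 5.04 TPM, above the means at 48 h and 72 h. The gene *1700045H11Rik* on its other strand averaged at most 0.0856 TPM in any group.

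*Ddit4* encodes REDD1, an inhibitor of mTORC1 that also answers to hypoxia and DNA damage. It was lower at 12 h than at 0 h and higher from 48 h: the means were 2.38 ± 5.02, 1.36 ± 3.75, 1.87 ± 4.15, 5.53 ± 12.5 and 5.17 ± 5.61 TPM, and the medians 0.723, 0.165, 0.389, 2.82 and 3.40 TPM. The SD exceeded the mean at every time. *Ddit4* on the plates had 15.6, 12.6, 12.4 and 11.8 TPM in PrE cells and 4.31, 3.84, 4.68 and 3.34 TPM in ES cells of E1, E2, B1 and B2. *Ddit4* rose in PrE by a log2 fold of 1.48 ± 0.120, the largest of the members on that side (SE, limma, adjusted p = 8.32e-06). *Ddit4* in C1 cells averaged 4.49 ± 4.68 TPM in PrE and 0.722 ± 0.876 TPM in ES cells. Untreated ES cells spanned a 9.97-fold range between experiments, which did not all share a library protocol. Their mean was 0.722 TPM on the C1 chip, 2.38 at 0 h, 4.04 on the plates and 7.20 in cells sorted by phase. All 6 genes of a hypoxia list rose in PrE on the plates, where 34.5% of all genes did, with *Bnip3* (log2 fold 3.10) and *Egln3* (2.30) in front. The sum of that list per cell averaged 567.9, 350.8, 246.5, 482.5 and 506.9 TPM at 0, 12, 24, 48 and 72 h. In the untreated cells sorted by phase the sum averaged 236 TPM in G1, 204.7 in S and 230.1 in G2M. Its part in the course of *Ddit4* was not tested. The genes most like *Ddit4* across the 456 cells were *Phlda3* (rho 0.622), *Sesn2* (0.620) and *Cdkn1a* (0.592).

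On the plates, 4 of the 9 members compared rose in PrE, where 34.5% of all genes did, and 3 fell, where 25.3% did. The calls on the higher side were *Ddit4*, *Nr3c1*, *Per1* and *Errfi1*, and those on the lower side *Fkbp5*, *Dusp1* and *Klf9*. The same 4 rose and the same 3 fell without the near-empty wells, where 35.7% and 29.6% of genes did. Without those wells the log2 folds were 1.46 for *Ddit4*, 1.23 for *Nr3c1*, 1.14 for *Per1*, 0.92 for *Errfi1*, -1.36 for *Dusp1*, -0.66 for *Klf9* and -0.21 for *Tsc22d3*, beside those of *Fkbp5* and *Sgk1* above. The 4 PrE plates did not overlap the 4 ES plates for 7 of the 9 members compared, beside 56.3% of all genes, and for the same 7 without the near-empty wells, beside 59.8% of all genes. The median log2 fold of the members was -0.08, beside 0.09 over all genes. In C1 cells 3 members were past 2-fold higher in PrE (*Ddit4*, *Per1* and *Nr3c1*), where 17.7% of genes were, and 1 was past 2-fold lower (*Fkbp5*), where 12.8% were. Side by side, the log2 folds of 72 h over 0 h, of C1 PrE over ES and of plate PrE over ES were -2.71, -2.09 and -2.49 for *Fkbp5*. They differed in sign for *Tsc22d3*, at 0.61, 0.58 and -0.19. They differed in size for *Sgk1*, at -1.15, -0.84 and -0.08, and for *Klf9*, at -0.78, -0.09 and -0.61.

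**Figure D4:**
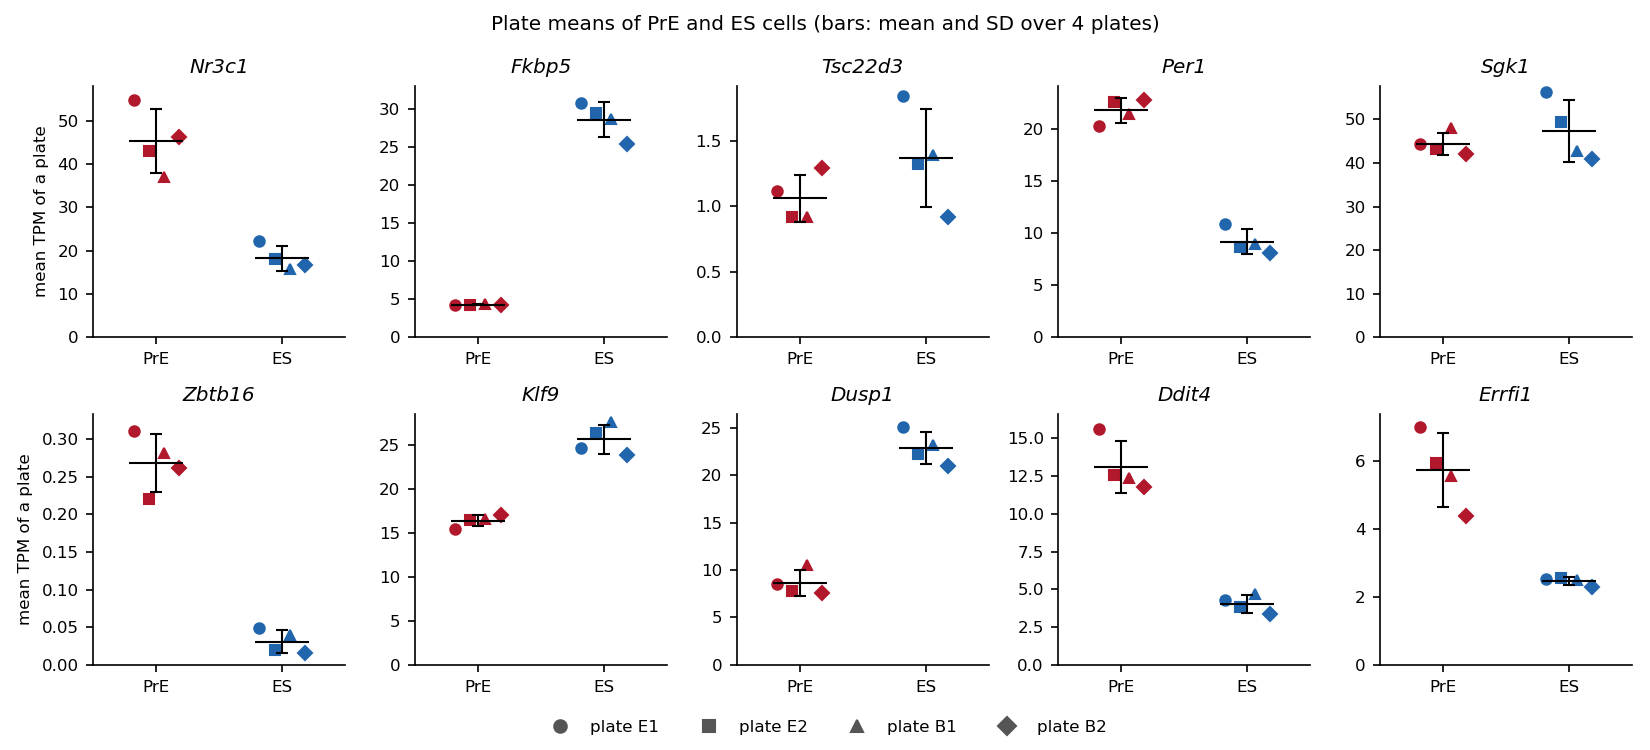
Plate means of each member in TPM, PrE left and ES right, with 1 symbol per plate and bars for the mean and SD over 4 plates. PrE and ES plates overlap for *Tsc22d3* and *Sgk1* and are apart for the other members, beside 56.3% of all genes compared.

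**Figure D5:**
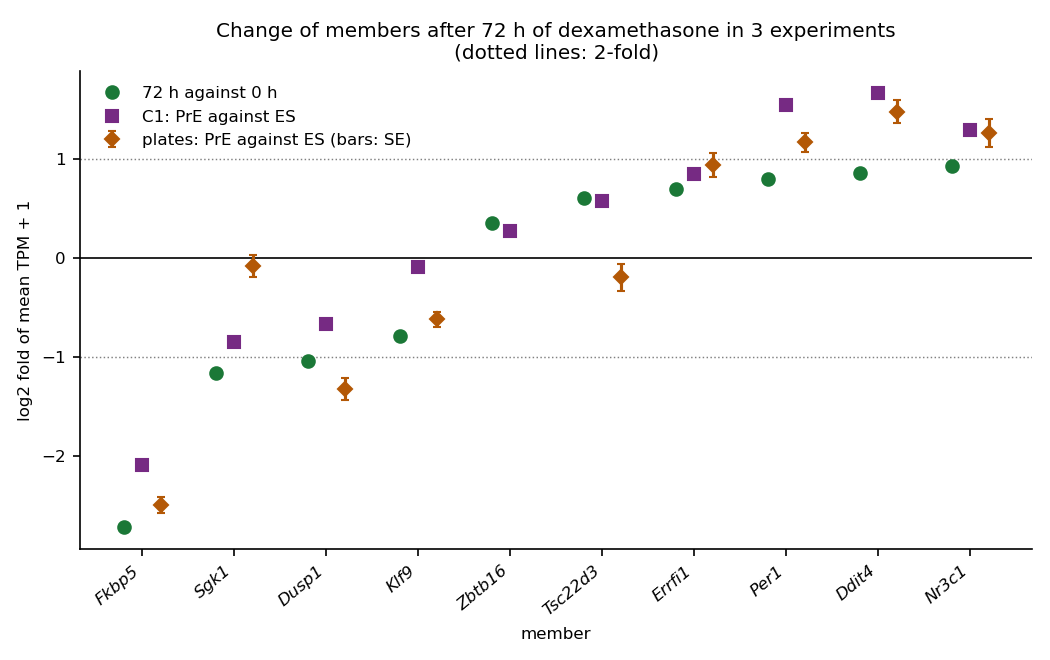
Log2 fold of mean TPM + 1 for each member at 72 h against 0 h, in C1 PrE against ES cells, and in plate PrE against ES cells with SE bars. Dotted lines mark 2-fold: *Fkbp5* lies below the lower line in all 3 experiments, and *Zbtb16* has no plate value because it was below 1 TPM.

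Other genes around the receptor are given as lists. Of 9 genes that handle hormone or receptor, 7 were compared on the plates. Of these 5 fell in PrE and none rose, beside 25.3% and 34.5% of all genes. Among the 5 were the chaperone *Hsp90aa1* (log2 fold -1.53), its partner p23, *Ptges3* (-0.75), and *Hspa8* (-0.70). Without the near-empty wells 6 fell and none rose, beside 29.6% and 35.7% of all genes. In the time course *Hsp90aa1* averaged 1915 TPM at 0 h, 1900.0 at 12 h, 1554 at 24 h, 926 at 48 h and 566 at 72 h. *Hsd11b1*, the enzyme that reactivates the hormone, averaged at most 0.0273 TPM at any time. The related receptor gene *Nr3c2* averaged 1.39 TPM at 0 h, 3.31 at 12 h, 5.82 at 24 h, 0.906 at 48 h and 0.718 at 72 h, and on the plates 1.32 ± 0.349 TPM in PrE and 1.51 ± 0.505 TPM in ES cells (SD, n = 4 plates each). Of 10 coregulators, 3 rose in PrE and 4 fell, beside 34.5% and 25.3% of all genes. Without the near-empty wells 4 rose and 4 fell, beside 35.7% and 29.6% of all genes. The added one was *Nrip1*, with a log2 fold of 1.91 there and 1.16 with all wells. *Ncor1* had the lowest fold, -1.51 with all wells and -1.03 without the near-empty ones, since its ES mean on plate B2 was 563 TPM with them and 156 TPM without.

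A wider list of 32 genes that glucocorticoids raise in other tissues had 21 compared on the plates. Of these 9 rose in PrE and 10 fell, where 34.5% and 25.3% of all genes did, with a median log2 fold of -0.24 beside 0.09 over all genes. *Cdkn1a*, an inhibitor of the cell cycle, rose by 3.53, *Lpin1*, a phosphatidate phosphatase, by 3.46, and *Mertk*, a receptor for cell debris, by 2.85. The metallothionein gene *Mt2* fell by 2.58, *Pdk4*, a brake on glucose oxidation, by 2.24 and *Tgm2*, a crosslinking enzyme, by 2.14. In the time course 21 genes of the list were compared. At 12 h none was 2-fold higher and 3 were 2-fold lower, beside 2.81% and 4.83% of all genes. At 72 h 5 were higher and 8 lower, beside 12.6% and 12.1% of all genes. The lower ones at 12 h were *Mt1* (30.2 TPM, against 199.8 at 0 h), *Mt2* (22.9 TPM, against 123.1) and *Nfkbia*, the inhibitor of NF-kappaB (2.18 TPM, against 6.57). *Mertk* averaged 0.851 TPM at 0 h, 1.30 at 12 h and 12.0 at 72 h, and *Lpin1* 2.34, 1.95 and 22.4 TPM.

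Untreated ES cells showed how far the members varied without the drug. Over 93 cells in G1, 91 in S and 93 in G2M, mean *Fkbp5* was 28.5 ± 9.88, 27.9 ± 8.29 and 27.2 ± 7.41 TPM, mean *Nr3c1* 17.3 ± 7.47, 20.5 ± 7.35 and 21.6 ± 7.74 TPM, and mean *Sgk1* 80.1 ± 54.6, 56.5 ± 42.9 and 72.2 ± 42.8 TPM. The log2 fold of *Sgk1* in S over G1 was -0.50, and 2.83% of 17507 genes had a lower one. For 9 wells that each held the averaged lysate of G1 cells, the coefficient of variation of *Sgk1* was 0.1998, against 0.682 over single G1 cells, and that of *Ddit4* was 0.316, against 1.33. For *Nr3c1* it was 0.211 and 0.431, and for *Klf9* 0.160 and 0.351. For *Fkbp5* it was 0.302 in wells and 0.347 in cells, and for *Errfi1* 1.05 and 0.785. Over the 9 wells it was 0.436 for *Dusp1*, 0.495 for *Per1*, 0.603 for *Tsc22d3* and 2.22 for *Zbtb16*. Without the highest well of a gene, left out after the values were seen, the value over 8 wells was 0.176 for *Fkbp5* and 0.70 for *Errfi1*. It was also lower for the other members, as for *Dusp1* at 0.363, except for *Per1* and *Zbtb16*, where it was higher. No single cell was left out.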

How the data were processed

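Members and gene lists were chosen with earlier results of these data known. The authors trimmed reads and deposited TPM per transcript from Sailfish on GENCODE vM9 transcripts (mm10), with an unstranded library type. For the time course they also deposited TPM on merged models built with HISAT2 2.0.1 and Cufflinks 2.2.1, as the submitters' processing notes list them, which hold 421 of the 456 cells. TPM carry no depth. 8 columns match no sample and were not used. Libraries from purified RNA were not used here.

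TPM were summed per gene (Python 3.11.15, pandas 2.3.3, scipy 1.17.1, matplotlib 3.10.9). Means over cells were compared as log2(mean TPM + 1), for genes with a mean of at least 1 TPM in 1 group. Plate means were compared with limma 3.58.1 (R 4.3.3, eBayes with trend, 4 against 4, Benjamini-Hochberg adjustment at 0.05 over 17418 genes). On simulated data with 100 genes changed at each size, 75% at a log2 fold of 1 and 91% at 2 were recovered, and 5.14% of calls were false. The simulation drew independent noise with the spread of the ES plate means, near-empty wells included, and had no pairs. In the real fit 34.5% of genes rose and 25.3% fell, so these rates do not carry over to it. Both cell types shared each plate by their labels, so the plates are pairs. Deviations of PrE and ES means correlated at 0.080, 0.046, 0.058 and 0.031 on E1, E2, B1 and B2, each the highest of its plate. The folds, SE, p-values and shares of genes above come from the fit without pairs. The fit with a replicate block, which keeps the pairs, is given below for the members.

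The named genes were the members, the 3 largest changes of a list in each direction and, per member, the 3 genes with the highest Spearman's rho over time course cells among those with at least 1 TPM in 20% of cells. Transcripts of *Nr3c1* and *Sgk1* and genes such as *Hsd11b1* and *Nr3c2* were added after their values were seen. Alternatives were other pseudocounts, filters, averages and cell sets, a replicate block, each plate left out and, chosen after seeing the data, the near-empty wells or the highest lysate well left out.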

Additional observations from a re-analysis of the deposited data

Results flagged for a closer look

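Of 30 groups of 4 to 10 samples tested for a sample far from the others, 3 had one, and chance gives about 1 in 20. All 3 were among the 9 wells of averaged G1 lysate, which hold the same material. *Fkbp5* was at 48.7 TPM in 1 well, with a median of 25.5 TPM. *Errfi1* was at 15.6 TPM in another, with a median of 3.05 TPM. *Zbtb16* was at 1.07 TPM in a further well, with a median of 0.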

How the results depend on the processing

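All 7 calls of members on the plates held under every alternative run, with 4 higher and 3 lower each time, also with each plate left out and under the replicate block, where *Fkbp5* had a log2 fold of -2.49 ± 0.0724 and *Nr3c1* 1.27 ± 0.0626, and the block changed no call of a member. The log2 fold of *Sgk1* was 0.0054 without plate E1 and -0.08 with all plates, neither past the test, and ranged from -0.16 to 0.0054 with a plate left out. Genes lower in PrE were 2767 with a filter of 5 TPM, where 10922 genes were compared, against 4406, and with a plate left out 3652 to 4218 were lower and 5458 to 5601 higher. Without the near-empty wells 6300 rose and 5224 fell.

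Counts of members past 2-fold depended on the pseudocount and the average. With a pseudocount of 0.1, 1 member was 2-fold higher at 24 h (14.9% of all genes were), 1 at 48 h (18.1%) and 2 at 72 h (17.3%), and 5 in C1 PrE cells (22.3%), and *Tsc22d3* at 72 h had a log2 fold of 1.25 and C1 *Ddit4* of 2.48. With medians over cells, 1 was higher at 48 h (11.03%) and 2 at 72 h (11.8%), 2 were lower in C1 PrE cells (12.1%), and *Sgk1* at 72 h had -1.83. With the mean of log2 values, 1 was higher at 72 h (11.03%) and 2 were lower in C1 PrE cells (10.3%). Without the 5% highest cells, 1 was higher at 72 h (12.2%). The cause was not tested. TPM give no depth, so levels near 0, as of *Zbtb16* and *Tsc22d3*, cannot be set against a counting limit.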

Other observations

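Single cells stood out among the members and were picked after their values were seen. At 12 h, 1 cell had 122.8 TPM of *Dusp1*, where the median was 2.77 TPM. At 48 h, 1 cell had 111.7 TPM of *Ddit4*, where the median was 2.82 TPM. At 48 h, the cell with the most ES marker RNA summed to 1466 TPM over the 8 ES markers, inside the range of 599.9 to 1503 TPM of untreated cells at 0 h, and to 551.3 TPM over the endoderm markers, where the median at 48 h was 7297 TPM. That cell had 15.02 TPM of *Fkbp5*, below all cells at 0 h, 157.5 TPM of *Sgk1*, the highest of its time, and 27.25 TPM of *Nr3c1*.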
